A study of Rattus norvegicus with 6 samples.

Results

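Il6, Ccl2, Cxcl1, Ptgs2, Icam1, Vcam1, Nfkbia and Lcn2 are 8 genes of inflammation and cell adhesion, and their transcripts were followed in rat bone marrow stromal cells (BMSCs) at 1% O2. They are 8 of the 32883 rows of the deposited table and were chosen by Ensembl gene ID for their known roles. Earlier results of these data were known when they were chosen. The table holds IDs without names, and the reference gene table used here gave an Ensembl ID for 0 of its 47357 genes. The pairing of each ID with its symbol was therefore taken from the member list and could not be checked here, although all 8 symbols occur in the RefSeq gene table. For the same reason the labelled cell type could not be checked against its marker genes, and no other genes of these pathways were described.

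Primary rat BMSCs, the adherent stromal cells of the marrow that can form bone, fat and cartilage cells, were cultured and passaged in alpha-MEM medium that contained serum. The 3 libraries of the hypoxia group came from cells kept for 7 days at 1% O2 in a tri-gas incubator. The 3 control libraries came from cells in normal culture, also at day 7, whose oxygen level the labels do not give. The labels give neither the strain, sex or age of the rats nor say if each library had an animal or culture of its own. The p-values thus reflect the scatter of these libraries alone, which may be technical. Their extraction protocol mentions muscle, whereas every other field gives BMSCs.

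In stromal cells, inflammatory signals such as interleukin 1 and tumour necrosis factor act largely through NF-κB, a transcription factor that the inhibitor IκBα, encoded by Nfkbia, holds in the cytoplasm. When IκBα is degraded, NF-κB enters the nucleus and switches on cytokines, chemokines, adhesion molecules and Nfkbia itself, which closes a feedback loop. Stromal cells of the marrow use these products to call in leukocytes, to hold blood cells in place through VCAM-1 and ICAM-1, and to make prostaglandin E2 through cyclooxygenase 2, the product of Ptgs2. A main route of low oxygen, though not its only one, is that of the hypoxia-inducible factors. These bind a short core sequence in the DNA near their target genes.

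The promoters of 3 members are shown, which between them carry sequence elements of both routes, though none of the 3 had matches to both. They belong to the member that rose, Ptgs2, and to a cytokine and the inhibitor of the NF-κB pathway, Il6 and Nfkbia. Sequences are from RefSeq (build GRCr8, matched by symbol) and run 5′ to 3′ on the strand of the gene, from 250 bases before its annotated start to 50 bases from it. The Ptgs2 window is chr13:64713813-64714112 (plus strand), and its capitals mark ACGTG, a form of the hypoxia response core, on either strand. The Il6 window is chr4:5894526-5894825 and the Nfkbia window chr6:78597023-78597322 (both minus strand), and their capitals mark matches to the κB consensus, the binding motif of NF-κB. The reads were counted on another build, rn6.
Ptgs2: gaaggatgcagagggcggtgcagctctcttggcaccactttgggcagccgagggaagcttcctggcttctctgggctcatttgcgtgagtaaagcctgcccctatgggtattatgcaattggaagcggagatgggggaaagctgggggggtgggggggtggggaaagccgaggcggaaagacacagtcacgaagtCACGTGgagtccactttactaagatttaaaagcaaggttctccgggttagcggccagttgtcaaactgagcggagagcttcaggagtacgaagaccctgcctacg
Il6: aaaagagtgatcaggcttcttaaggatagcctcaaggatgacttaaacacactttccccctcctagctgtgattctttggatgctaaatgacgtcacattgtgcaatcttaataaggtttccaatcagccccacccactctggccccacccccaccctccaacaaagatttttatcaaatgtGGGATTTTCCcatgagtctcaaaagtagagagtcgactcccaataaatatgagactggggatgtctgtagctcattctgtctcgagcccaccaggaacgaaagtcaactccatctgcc
Nfkbia: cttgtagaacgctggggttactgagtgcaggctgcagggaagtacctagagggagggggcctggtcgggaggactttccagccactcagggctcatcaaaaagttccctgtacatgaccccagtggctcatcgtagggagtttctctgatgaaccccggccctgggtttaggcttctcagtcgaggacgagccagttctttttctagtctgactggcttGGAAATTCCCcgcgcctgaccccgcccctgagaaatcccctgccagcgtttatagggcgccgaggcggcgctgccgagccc

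Windows were found for 7 of the 8 members, all but Ccl2. The form ACGTG was found in 2 of the 7 windows, those of Ptgs2 and Vcam1, against 19.3% of all 33469 RefSeq promoter windows of the same length. Other forms of the hypoxia response core were not searched, so a window without ACGTG may still hold one. In Ptgs2 the ACGTG matches on both strands overlap in 1 palindrome, CACGTG, from 55 to 50 bases before the start. This palindrome, which is also the E-box motif, was found in 2 of the 7 windows, those of Ptgs2 and Vcam1 (from 17 to 22 bases after the start), against 6.42% of all windows. The κB consensus was searched on both strands as GGGRNNYYCC (R is A or G, Y is C or T, N is any base). Sites that depart from this pattern were not searched, so a window without a match may still hold such a site. A full match was found in 5 of the 7 windows (Il6, Cxcl1, Vcam1, Nfkbia and Lcn2) against 7.51% of all windows. In Il6 it reads GGGATTTTCC, and in Nfkbia it reads GGGAATTTCC on the opposite strand. The GC box GGGCGG, a motif of SP1, the factor named in the title of the series, was found in Ptgs2, Icam1 and Nfkbia, 3 of 7 against 33.1% of all windows. TATAAA, the letters of a core promoter motif, was found in Icam1, Vcam1 and Nfkbia, 3 of 7 against 14.2%. In Nfkbia it lay on the opposite strand, 17 to 22 bases after the start, and in Icam1 and Vcam1 before the start. The last motif searched, TGACGT, was found in Il6 alone, 1 of 7 against 7.94%. These matches describe letters in a short window, and no binding was measured here.

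**Figure D1:**
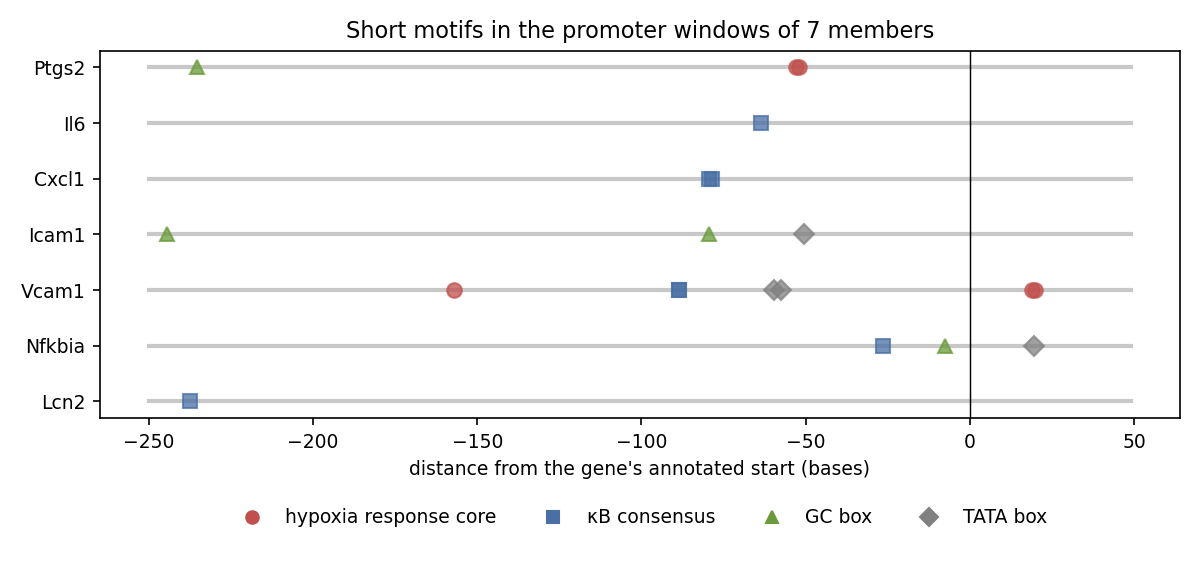
Matches to 4 short motifs (symbols, at the centre of each match on either strand) in the promoter windows of 7 members (rows), by distance in bases from the annotated gene start (line at 0, minus is upstream). ACGTG, the only form of the hypoxia response core searched, lies in Ptgs2 and Vcam1. A full match to the κB consensus lies in 5 members but not in Ptgs2 or Icam1, and looser matches were not searched.

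The libraries held 13273781 to 13361629 reads assigned to genes in controls and 14879124 to 18533675 at 1% O2. Values are given as CPM, reads of the gene per 1000000 reads of the library after scaling with TMM factors, and are not corrected for gene length, so they compare libraries and not genes. Of the 8 members, 4 (Ptgs2, Il6, Icam1 and Nfkbia) passed the low-count filter and were tested with 12702 genes in all. The other 4 (Ccl2, Cxcl1, Vcam1 and Lcn2) had at most 14 reads in any library and are described by their reads. Control replicate 2 stood apart from the other controls over all genes. The mean chi-square per gene, which is 1 for sampling noise alone, was 6.48 and 6.57 against them, compared with 1.51 between the other pair.

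The comparison of 1% O2 with control asks how the transcripts of these cells differ after 7 days of low oxygen. One member, Ptgs2, rose, by 3.65-fold. Icam1 and Nfkbia lay within 1.07-fold of their control means, and Il6 lay 1.54-fold below its control mean, a difference that did not pass the test. Ccl2, left out by the filter, was lower in all 3 libraries at 1% O2 than in any control, on few reads. By edgeR's quasi-likelihood test with Benjamini-Hochberg adjustment at 0.05, 1 of the 4 tested members was higher and 0 were lower, whereas over all tested genes 23.1% were higher and 21.9% were lower, 45.0% in all. At an unadjusted p under 0.05, 1 of the 4 was lower, Il6, against 25.5% of all tested genes. DESeq2 called 1 of the 4 higher and 0 lower. Over all 12702 tested genes it called 4580 in either direction, where edgeR called 5718. The median log2 fold change was -0.07 over the 4 tested members and 0.0025 over all tested genes. Groups did not overlap in CPM for 2 of the 4, Ptgs2 and Il6, against 55.5% of all tested genes.

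**Figure D2:**
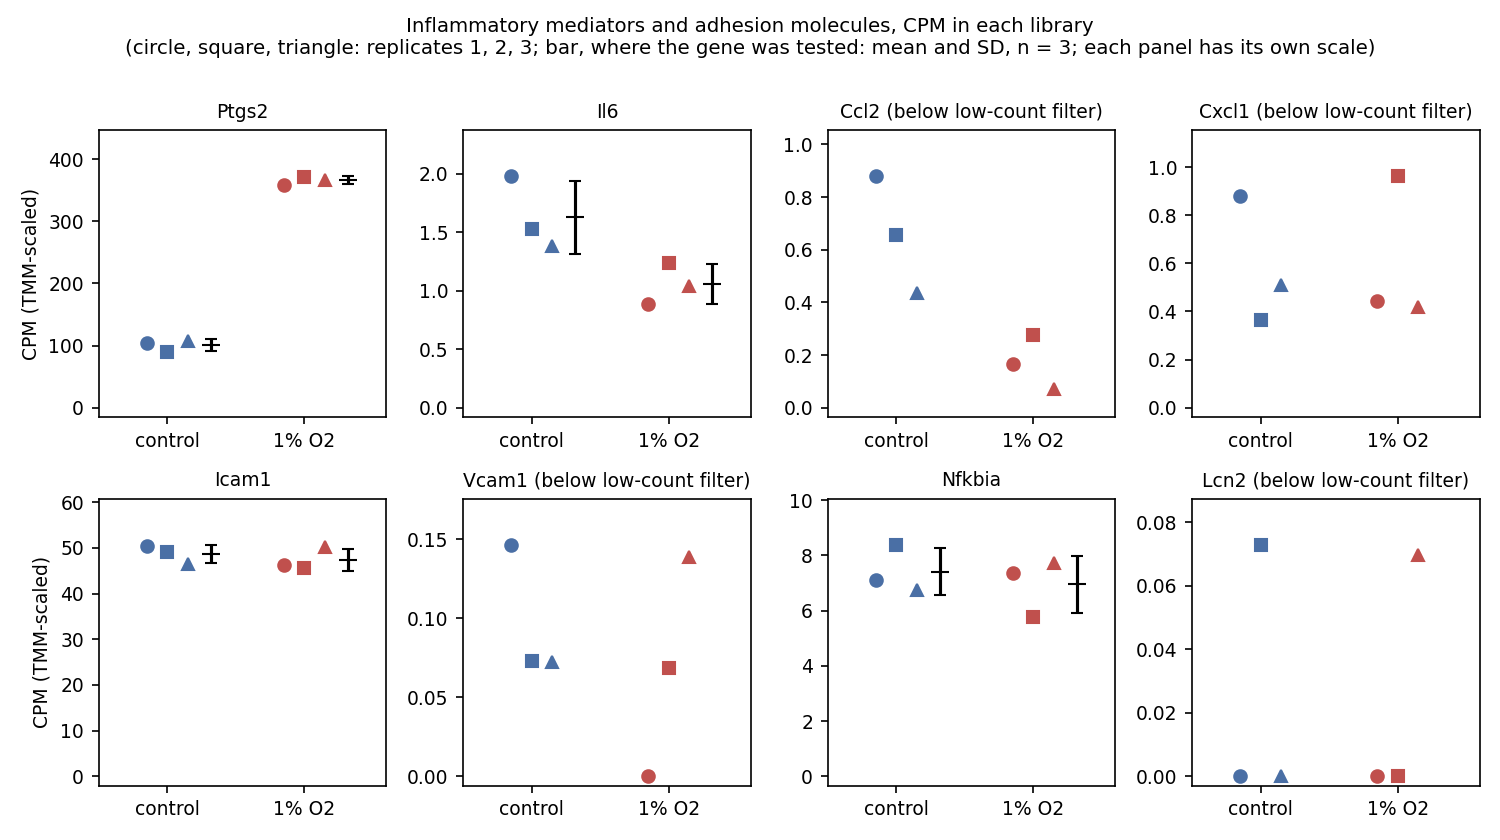
CPM (vertical axis, linear, a scale of its own in each panel) of the 8 members in the 3 control libraries and the 3 libraries at 1% O2, with mean and SD for the 4 tested members. Ptgs2 lies between 359 and 372 CPM at 1% O2, above every control. Il6 and Ccl2 lie below every control, and the groups overlap for the other 5.

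Ptgs2 (ENSRNOG00000002525) encodes the inducible cyclooxygenase, which makes the precursor of prostaglandin E2 and other prostaglandins. Its values were 104, 89.4 and 108 CPM in control replicates 1, 2 and 3, from 1416, 1229 and 1486 reads. At 1% O2 they were 359, 372 and 367 CPM, from 6451, 5414 and 5275 reads. Every library at 1% O2 was far above every control, and Control replicate 2 was the lowest of all 6. Its mean went from 100.3 ± 9.7 CPM to 366 ± 6.5 CPM (SD, n = 3 each), and the groups were far apart compared with either spread. On the log2 scale the difference was 1.87 ± 0.06 (SE), or 3.65-fold with a 95% interval of 3.33 to 3.99, and the adjusted p was 1.8e-11 (edgeR). By size, this was the rise in place 82 among the 12702 tested genes. At least 2-fold rises past the threshold were found for 2.83% of them. Without Control replicate 2 the log2 fold change was 1.79 and the adjusted p 6.74e-26 (edgeR). Without any other single library it was 1.85 to 1.92, with a weaker adjusted p of 1.61e-10 to 5.94e-09.

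Il6 (ENSRNOG00000010278) encodes interleukin 6, a cytokine of the acute phase response that also drives osteoclast formation through the stroma. Its libraries held few reads, 27, 21 and 19 in controls and 16, 18 and 15 at 1% O2, although the latter libraries were deeper. Scaled, these were 1.98, 1.53 and 1.38 CPM in controls against 0.890, 1.24 and 1.04 CPM at 1% O2. All 3 libraries at 1% O2 lay below all controls, but the gap between the nearest, 1.24 and 1.38 CPM, corresponds to about 2 reads in these libraries. The means were 1.63 ± 0.31 and 1.06 ± 0.17 CPM (SD, n = 3 each). The log2 fold change was -0.63 ± 0.26 (SE), with a 95% interval of -1.20 to -0.06 before adjustment, an unadjusted p of 0.0317 and an adjusted p of 0.0661 (edgeR). The call depended on the scaling, since library totals alone gave -0.72 and an adjusted p of 0.0369. That scaling moved all genes down alike, with the median log2 fold change of all tested genes at -0.09 in place of 0.0025, and Il6 moved with them. The adjusted p lay between 0.0622 and 0.242 under the other 12 alternatives.

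The chemokines Ccl2 (ENSRNOG00000007159) and Cxcl1 (ENSRNOG00000002802) draw monocytes and neutrophils out of the blood. Ccl2, also known as MCP-1, had 12, 9 and 6 reads in controls and 3, 4 and 1 at 1% O2. These were 0.879, 0.655 and 0.436 CPM against 0.167, 0.275 and 0.0696 CPM, and the groups did not overlap. Over each group, 27 reads in controls stood against 8 at 1% O2, a ratio of CPM of 0.26 with an exact 95% interval of 0.102 to 0.588 for counting error only. The exact permutation test over the 6 libraries (two-sided) had p = 0.1, which is as low as 3 against 3 can go. When the fit was repeated without the low-count filter, on 19600 genes, Ccl2 had a log2 fold change of -1.89 ± 0.59 (SE) and an adjusted p of 0.00886 (edgeR), while 14.3% of all genes were called lower in that fit and 30.2% in either direction. This call was lost with DESeq2, where the adjusted p was 0.0646, and on leaving out Control replicate 1 (0.0944), Hypoxia replicate 1 (0.0704) or Hypoxia replicate 3 (0.0557).

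Cxcl1 had reads in the same range as Ccl2 without its separation of groups. Its controls held 12, 5 and 7 reads and its libraries at 1% O2 held 8, 14 and 6. Scaled, they were 0.879, 0.364 and 0.508 CPM against 0.445, 0.961 and 0.417 CPM, so that the highest and the lowest library were Hypoxia replicate 2 and Control replicate 2, and the groups overlapped over most of their range. Summed over each group, the ratio of 1% O2 to control was 1.02, with an exact 95% interval of 0.572 to 1.85. This interval covers counting error only and not the scatter between libraries. A change of a size within it could not be told from none at this depth. In the fit without the filter the adjusted p was 0.961 (edgeR).

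ICAM-1 and VCAM-1 are surface proteins of the immunoglobulin family to which leukocytes bind through their integrins, and VCAM-1 on marrow stroma also helps to hold blood-forming cells. Icam1 (ENSRNOG00000020679) was measured at 50.3, 49.1 and 46.5 CPM in controls and at 46.2, 45.7 and 50.1 CPM at 1% O2, from 640 to 831 reads in each library. The highest library at 1% O2 lay between Control replicates 1 and 2, so the groups overlapped. The means were 48.6 ± 2.0 and 47.3 ± 2.4 CPM (SD, n = 3 each), a difference smaller than either SD. The log2 fold change was -0.04 ± 0.06 (SE), with an adjusted p of 0.615 (edgeR). Its 95% interval, from 0.888-fold to 1.07-fold, does not include the 3.65-fold rise seen for Ptgs2 in the same libraries.

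Vcam1 (ENSRNOG00000014333) was at the limit of detection in every library. Controls held 2, 1 and 1 reads and the libraries at 1% O2 held 0, 1 and 2. The 0 reads of Hypoxia replicate 1 allow up to 3 reads, or 0.167 CPM, which is above the highest value measured, 0.146 CPM in Control replicate 1. The totals of 4 and 3 reads give a ratio of 0.658 with an exact 95% interval of 0.0964 to 3.89 for counting error only. Neither a fall nor a rise of several-fold could be told from none. The κB matches on both strands of its promoter window fall on 1 site, 93 to 84 bases before the start. That site and the ACGTG matches therefore stand beside a gene with hardly a read in either group.

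Nfkbia (ENSRNOG00000007390), whose IκBα protein restrains NF-κB and whose transcript is commonly read as a gauge of NF-κB activity, was measured at 7.10, 8.37 and 6.75 CPM in controls, from 97, 115 and 93 reads. At 1% O2 it was measured at 7.34, 5.77 and 7.72 CPM, from 132, 84 and 111 reads. Both replicates numbered 2 were the extremes, the highest in controls and the lowest at 1% O2, and the groups overlapped. The means were 7.41 ± 0.85 and 6.94 ± 1.04 CPM (SD, n = 3 each), with a log2 fold change of -0.09 ± 0.14 (SE) and an adjusted p of 0.62 (edgeR). The 95% interval ran from 0.764-fold to 1.15-fold. Its sign rested on single libraries, with 0.0086 without Control replicate 2 and 0.019 without Hypoxia replicate 2.

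Lcn2 (ENSRNOG00000013973) encodes lipocalin 2, a secreted protein that withholds iron from bacteria by binding their siderophores. It had 1 read in Control replicate 2, 1 read in Hypoxia replicate 3 and 0 reads in the other 4 libraries. With 0 reads, a library allows up to 3, which is 0.167 to 0.22 CPM in these 4. The group totals of 1 and 1 read place the ratio anywhere between 0.0112 and 68.9 (exact 95% interval), so nothing can be said of a difference.

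**Figure D3:**
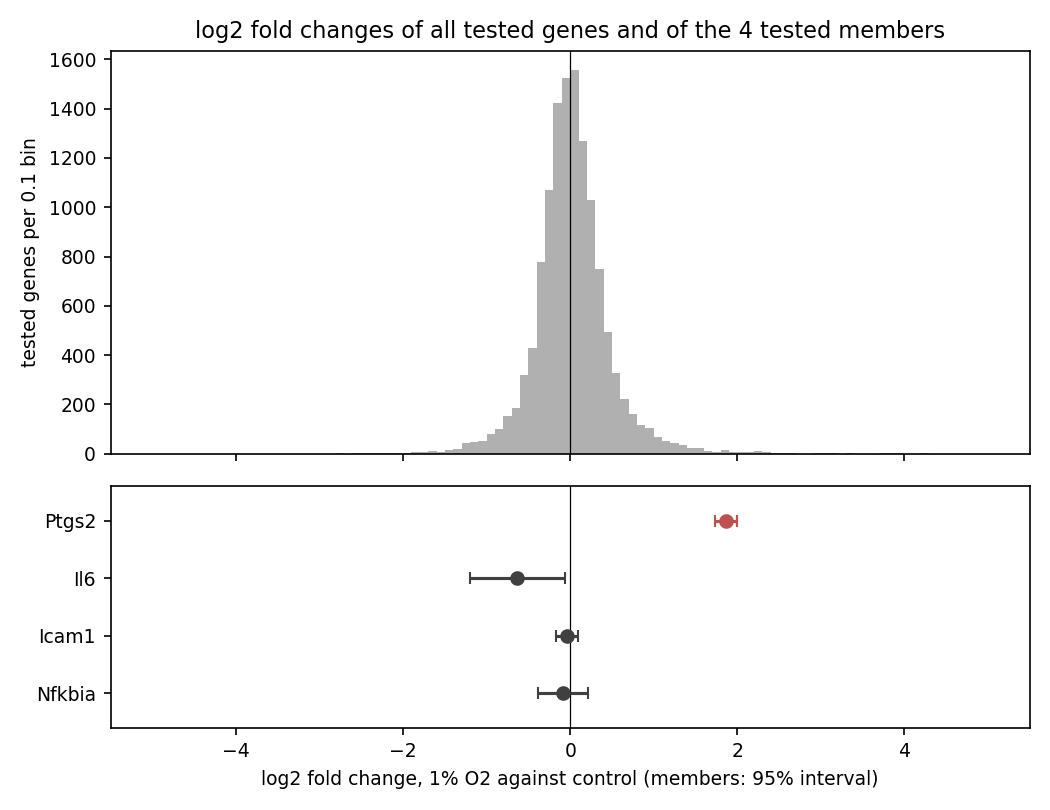
Log2 fold change at 1% O2 against control (horizontal axis), as a histogram of all 12702 tested genes in bins of 0.1 (top; 1 gene above 5 is drawn in the last bin) and for the 4 tested members with their 95% intervals (bottom, Ptgs2 in red as the member past the threshold). Ptgs2 at 1.87 lies in the sparse right tail, Icam1 and Nfkbia lie near 0, and the interval of Il6 is the widest.

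Set side by side, the members with enough reads for a narrow interval differed in their response. Ptgs2 and Icam1, from 1229 to 6451 and 640 to 831 reads per library, had 95% intervals of log2 fold change of 1.74 to 2.00 and -0.17 to 0.09, which do not meet. Nfkbia, with 84 to 132 reads, had an interval of -0.39 to 0.21, also below that of Ptgs2. Il6 and Ccl2, the secreted mediators with the lower values at 1% O2, had 15 to 27 and 1 to 12 reads per library. The direction of both was kept in every alternative that was run for them. That outcome was largely fixed beforehand, since their groups did not overlap and every alternative reused these libraries. It is no further evidence of a fall.

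**Figure D4:**
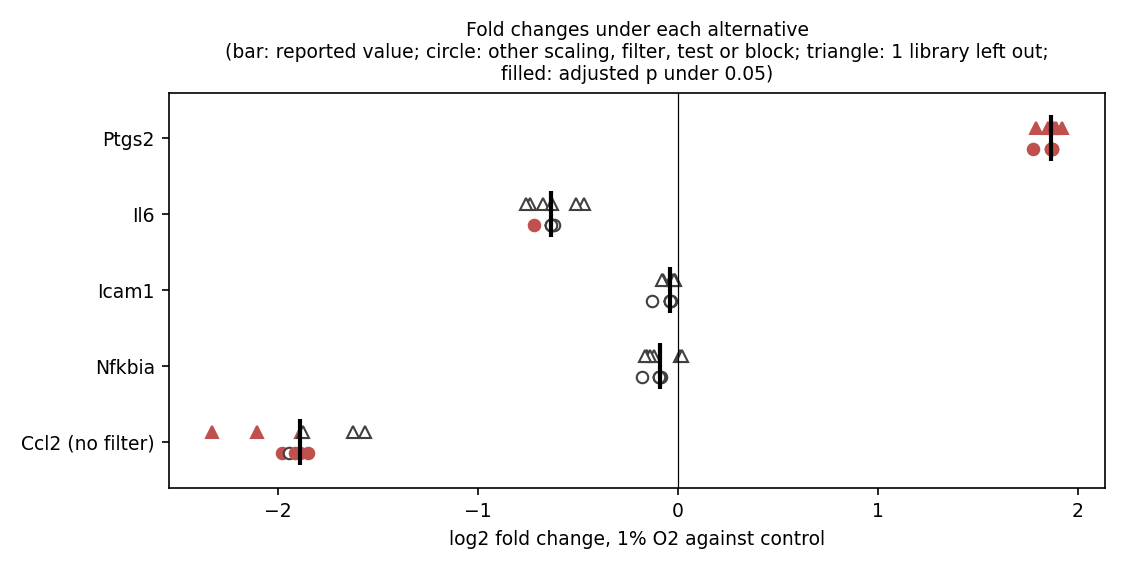
Log2 fold change at 1% O2 against control (horizontal axis) of the 4 tested members, and of Ccl2 in the fit without the low-count filter, as reported (black bar) and under each alternative (circles) or with 1 library left out (triangles), filled where the adjusted p was under 0.05. Ptgs2 stays between 1.78 and 1.92 and Il6 between -0.76 and -0.47, while Nfkbia reaches both sides of 0.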

How the data were processed

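The authors deposited raw read counts per Ensembl gene ID for 6 mRNA libraries. Per the labels' protocols these were made with a stranded mRNA kit. HISAT2, featureCounts and DESeq2 are named, with build rn6, per the submitters' processing notes. Tool versions, strand setting and annotation release were not given in the sources used here, so overlapping or antisense genes may share reads. Columns were matched to samples by library name, and 0 columns belonged to other samples.

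The test was that of edgeR 4.0.16 (R 4.3.3) on these counts (filterByExpr with a minimum count of 10 and a minimum total of 15, TMM factors, two-sided quasi-likelihood test of the group, Benjamini-Hochberg over all 12702 tested genes, threshold 0.05). SE is the size of the log2 fold change divided by the square root of F. Its intervals use the test's degrees of freedom. Exact intervals of group ratios come from summed reads and cover counting error only, as does the floor of 3 counts. All 8 members are named whatever their values. They and the lists were chosen with earlier results of these data known. Lists that need names for other IDs were not run. Alternatives included DESeq2 1.42.0 and limma-voom (limma 3.58.1). The fits were tested on simulated data.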

Additional observations from a re-analysis of the deposited data

How the results depend on the processing

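Of 13 alternatives, 10 gave the same count of members past the threshold, 1 in all and 0 lower, and 3 gave 2 in all and 1 lower. Over all tested genes, these 3 called 6071 of 12702 (library totals alone), 5923 of 19600 (no filter) and 5234 of 12946 (without Control replicate 3). The main fit called 5718 of 12702, and the lowest count was 4580 of 12702, with DESeq2. The added member was Il6 with library totals alone (log2 fold change -0.72, adjusted p 0.0369, edgeR), a scaling that took the median of all tested genes from 0.0025 to -0.09. It was Ccl2 without the low-count filter and without Control replicate 3, where Ccl2 passed the filter (-2.11). Leaving out 1 library gave 1 to 2 members in all and 0 to 1 lower. Over all genes it gave from 4626 of 12861 (without Hypoxia replicate 3) to 6017 of 12959 (without Control replicate 2). The count of higher members was 1 under all 13. Ptgs2 lay between 1.78 and 1.92, past the threshold each time, and Icam1 between -0.13 and -0.02, past it under 0 of 13. Nfkbia was 0.0086 without Control replicate 2 and 0.019 without Hypoxia replicate 2, -0.16 to -0.12 without another library and -0.18 to -0.08 under the other settings, never past the threshold. Il6 was lower in all 13, but its groups did not overlap and all 13 reused these libraries, so this adds no evidence. Ccl2 in the fit without the filter was followed through 11 alternatives chosen after seeing the data, at -2.33 to -1.57 when 1 library was left out. The call was lost with DESeq2 (-1.94), and without Control replicate 1 (-1.62), Hypoxia replicate 1 (-1.88) or Hypoxia replicate 3 (-1.57). Fewer samples enter the last 3, and otherwise the cause was not tested. The replicate block, with the number in the titles as a term, gave 1.87 for Ptgs2, -0.64 for Il6, -0.04 for Icam1, -0.09 for Nfkbia and -1.91 for Ccl2, and changed no call. Same-numbered libraries had correlations of their deviations from the group means of -0.05 to 0.0052 and others of -0.0137 to 0.0514, and nothing in the labels pairs them. Depth limits Vcam1 and Lcn2, with 0 to 2 reads per library, to no statement on a difference.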

Other observations

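A measure that needs no scaling factor was added after the values were seen, the number of Ptgs2 reads per Icam1 read in each library. It was 2.06, 1.82 and 2.32 in control replicates 1, 2 and 3, and 7.76, 8.14 and 7.33 at 1% O2. The means were 2.07 ± 0.25 and 7.74 ± 0.41 (SD, n = 3 each), a 3.74-fold difference, and the groups did not overlap. The exact permutation test (two-sided) had p = 0.1, which is as low as 3 libraries against 3 can go. This ratio reuses the reads behind the fold changes above, so it is no separate evidence that the responses of both genes differed. It also says nothing of Icam1 alone.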
